A study of Mus musculus with 12 samples.

Results

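The BMP and TGF-beta pathway was described here through 41 genes, chosen by name from the 53465 genes counted in each library: 12 ligands, 11 receptors, 8 Smads, 6 antagonists and 4 latent TGF-beta binding proteins. All 41 symbols matched 1 gene identifier each, and all 41 passed the filter on low counts. RNA came from sorted spinal cord cells of C57BL/6 mice at postnatal day 7, from the brachial and thoracic levels, dissociated with papain. Every animal carried the reporters Aldh1L1-GFP, named for a folate enzyme gene of astrocytes, and Olig2-tdTomato, whose gene encodes a factor of ventral progenitors and oligodendrocytes. Sorting gave 3 fractions of 4 libraries each (biological replicates 1, 2, 3 and 5): cells with the green reporter (eGFP), with the red one (tdTomato) and with both (eGFP/tdTomato). The labels give no sort gates, no number of animals per library and no construct behind either reporter. A p-value here sets a difference between fractions against the spread of these libraries, which may not be the spread between animals.

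BMPs, activins, growth differentiation factors and TGF-betas are secreted dimers that bring together a type 1 and a type 2 receptor kinase. The activated type 1 receptor phosphorylates a receptor Smad (Smad1, Smad5 and Smad9 for BMPs, Smad2 and Smad3 for TGF-beta and activin), which enters the nucleus with Smad4, while Smad6 and Smad7 damp the signal. Outside the cell, Noggin, Chordin, Gremlin and similar proteins bind BMPs and keep them from their receptors, and latent binding proteins hold TGF-beta in the matrix in an inactive form. In the developing spinal cord BMPs pattern the dorsal side, favour astrocytes and hold back oligodendrocytes.

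Levels are CPM, counts per M (1e+06) of the reads in genes, scaled by TMM factors. Library values are given in the order replicate 1, 2, 3 and 5. A gene is called higher or lower when its adjusted p in edgeR's quasi-likelihood test is under 0.05. A ± after a log2 fold change is its SE, and a ± after a level is the SD of 4 libraries. The 12 libraries held 12.6 M to 36.5 M gene counts, the fewest in eGFP replicate 1, which also had 57.1% of its reads outside genes. Summed astrocyte markers (8 genes) were at 32673 to 47126 CPM in the eGFP, 41327 to 48524 in the eGFP/tdTomato and 221 to 310 in the tdTomato libraries. Summed oligodendrocyte markers (7 genes) were at 381 to 1268, 1499 to 3157 and 108893 to 161403 CPM in the same order. In the eGFP libraries 4 other marker lists were higher than in both other fractions. Mural and fibroblast markers (8 genes) summed to 787 to 2094 CPM there, against 357 to 569 in the eGFP/tdTomato libraries and 8.48 to 18.2 in the tdTomato libraries. Microglia and macrophage markers (11 genes) summed to 93.1 to 1084, 33.8 to 47.1 and 22.4 to 47.0 CPM, ependymal markers (7 genes) to 130.1 to 286, 12.5 to 19.0 and 1.78 to 3.10 CPM, and endothelial markers (8 genes) to 115 to 212, 59.9 to 78.6 and 66.6 to 112 CPM. The tdTomato libraries were highest in summed progenitor markers (6 genes, 2321 to 4357 CPM against 101 to 375 in eGFP and 492 to 1149 in eGFP/tdTomato) and summed neuronal markers (7 genes, 445 to 670 against 53.3 to 69.4 and 37.2 to 59.6). The neuronal list was split by gene. In eGFP against tdTomato 3 of its 7 genes were called lower and 1 higher, and in eGFP/tdTomato against tdTomato 4 lower and 1 higher. Most of these lists also differed in the comparisons against tdTomato. Between eGFP/tdTomato and tdTomato, however, 0 of 8 endothelial and 1 of 11 microglia and macrophage markers were called. The part of these lists in the members' results against tdTomato was not tested. No marker of these lists was at 0 in all libraries of a fraction. In bulk RNA of this kind, fewer cells of a type and less RNA per cell cannot be told apart.

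Most of the 41 members differed between the tdTomato fraction and the other fractions. Between the eGFP/tdTomato and tdTomato fractions 22 members were higher and 7 lower (29 of 41, 70.7%), where 29.2% of all 29361 genes tested were called and 45% of the 15284 protein-coding genes with a mean of at least 1 CPM. Between eGFP and tdTomato 24 were higher and 6 lower (30 of 41, 73.2%), against 35.2% of all genes tested and 52.9% of the protein-coding ones. Between eGFP/tdTomato and eGFP, the question of what sets the cells with both reporters apart from other eGFP cells, 2 members were higher (Bmp4 and Ltbp1) and 3 lower (Bmp2, Gdf10 and Tgfbr3), 12.2% of 41 against 2.49% of all genes tested (0.814% higher and 1.67% lower) and 4.51% of the protein-coding ones. At an unadjusted p under 0.05 there were 10 members. The median log2 fold change of the members was -0.09, 1.60 and 2.00 in eGFP/tdTomato against eGFP, eGFP/tdTomato against tdTomato and eGFP against tdTomato, where that of all genes tested was -0.02, 0.70 and 0.79. Each fraction enters 2 of these 3 comparisons, so they share libraries and are not independent. The members were also chosen with earlier results of these data known. In the tdTomato fraction 30 of the 41 reached the level of the low-count filter in all libraries, fewer than in the other fractions. Some members called higher than in tdTomato thus entered the test through the eGFP-positive fractions, and the called shares only describe the list.

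In all, 33 members were called in at least 1 comparison. Above the tdTomato fraction in both eGFP-positive fractions were 20 members, and below it in both were 6 (Bmp4, Acvr2b, Tgfbr1, Smad2, Smad7 and Ltbp4). The 8 members called nowhere were Bmp3, Tgfb1, Bmpr2, Acvr1b, Acvr2a, Acvrl1, Smad4 and Fst. The level that the low-count filter sets from the library of median size (0.376 CPM) was met in all 4 libraries by 40 members in the eGFP, 38 in the eGFP/tdTomato and 30 in the tdTomato fraction.

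**Figure D1:**
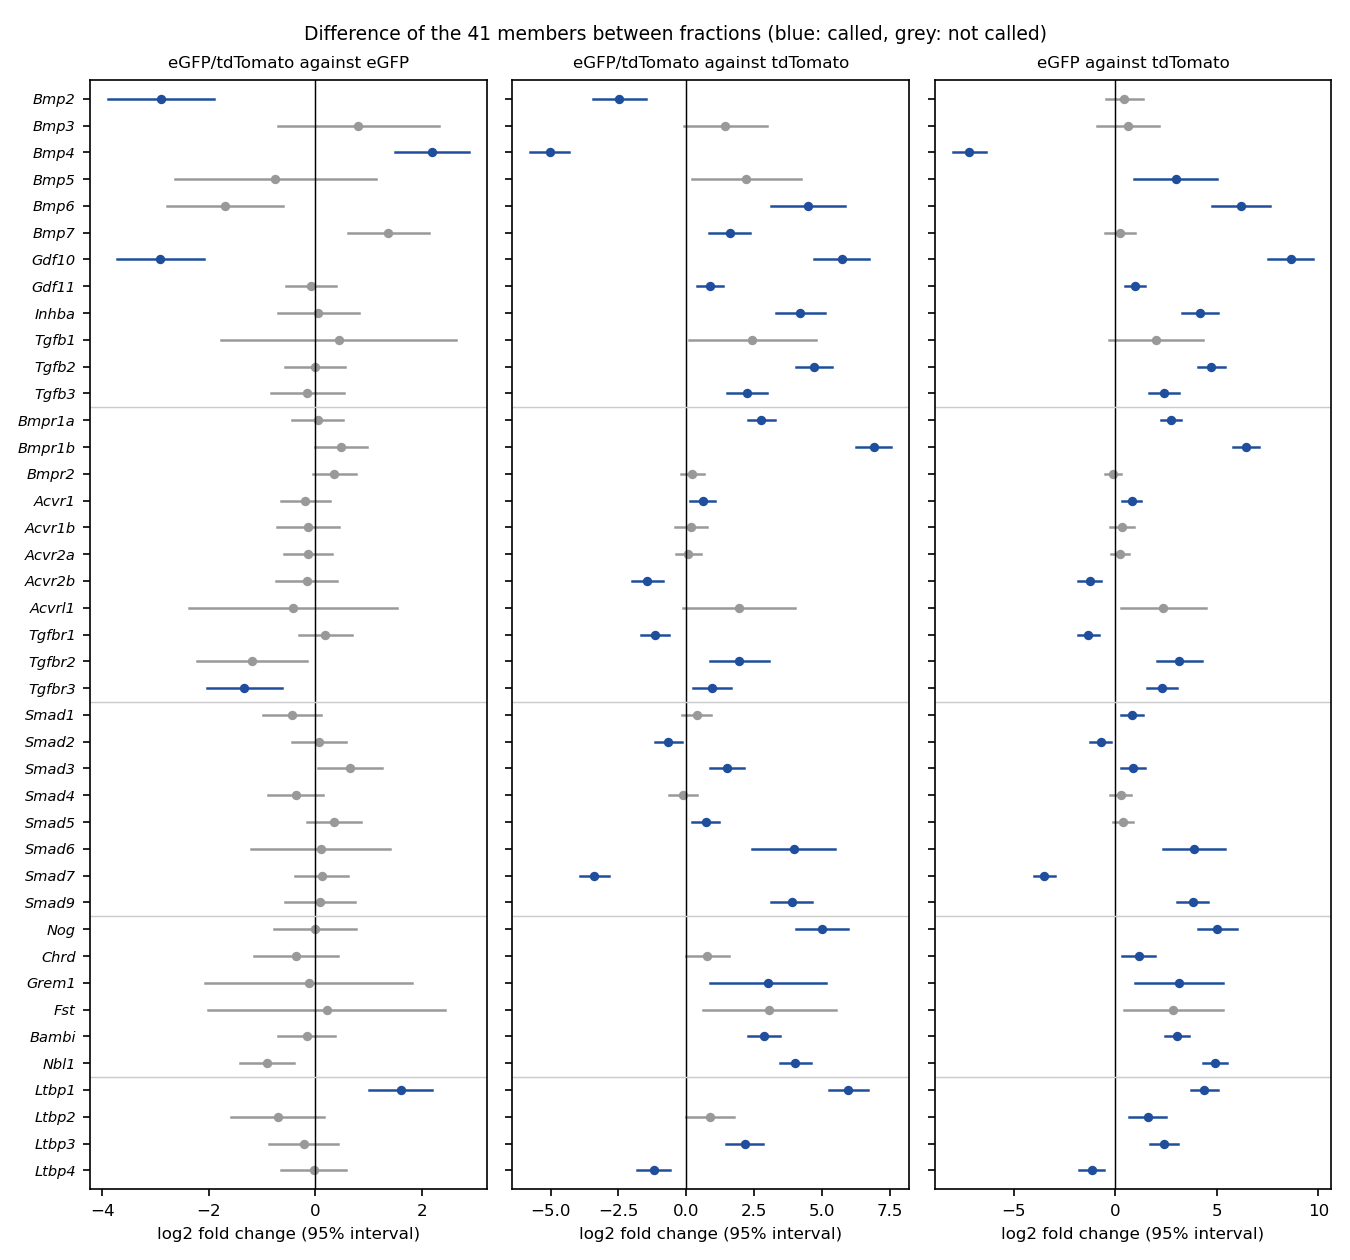
Log2 fold change of each of the 41 members (points, with 95% intervals as lines) in the 3 comparisons of fractions, 4 libraries each, grouped from top to bottom as ligands, receptors, Smads, antagonists and latent TGF-beta binding proteins; blue marks called members. In the left panel 5 members are called, and in the other panels 29 and 30, with Bmp4 and Smad7 far to the left of 0.

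Each fraction had its own leading ligands. Bmp4 was almost the whole ligand RNA of the tdTomato fraction, Gdf10 and Tgfb2 led in the eGFP fraction, and Tgfb2, Gdf11 and Bmp7 led in the fraction with both reporters. Of the 12 ligands, 7 were higher and 2 lower in eGFP/tdTomato than in tdTomato, 7 higher and 1 lower in eGFP than in tdTomato, and 1 higher and 2 lower in eGFP/tdTomato than in eGFP. The median log2 fold change of the 12 was 2.23, 2.20 and -0.05 in that order. The called shares of the 12 were 75%, 66.7% and 25%. Those of all genes tested were 29.2%, 35.2% and 2.49%, and those of the protein-coding genes given above 45%, 52.9% and 4.51%.

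Bmp4 (ENSMUSG00000021835, chromosome 14, 46383520 to 46390669, GRCm38), the BMP best known for patterning dorsal and ventral embryonic tissue, was the most abundant ligand of the tdTomato fraction per kilobase of exon. It was at 2.84, 1.48, 1.05 and 0.792 CPM in the eGFP libraries and 4.47, 7.94, 7.57 and 7.44 CPM in the eGFP/tdTomato libraries. Bmp4 was at 208, 265, 239 and 177 CPM in the tdTomato libraries. The 3 fractions did not overlap in a single library, and Bmp4 had the lowest level in the eGFP fraction. It was 148-fold lower in eGFP than in tdTomato (log2 fold change -7.21 ± 0.38, adjusted p = 1.58e-09) and 32.4-fold lower in eGFP/tdTomato than in tdTomato (-5.02 ± 0.34, adjusted p = 1.63e-08). Cells with both reporters still held 4.55-fold more of it than eGFP cells (2.19 ± 0.33, adjusted p = 0.00136), a call kept in all 26 alternatives. The eGFP/tdTomato level was 3.08% of the tdTomato level, where the summed oligodendrocyte markers stood at 1.81% and the summed progenitor markers (6 genes) at 24.9%. The oligodendrocyte markers moved with Bmp4 in this comparison as well (6 of 7 higher in eGFP/tdTomato than in eGFP), as did 4 of 6 progenitor markers, and their part in the result was not tested.

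The 250 bases before the Bmp4 start site are shown because this member had the largest excess in the tdTomato fraction. They come from RefSeq on GRCm38.p6 (chr14:46390670-46390919, reverse strand), are written 5′ to 3′ and end at the base before the start. No base is in capitals, since none of the 4 short motifs searched and named further on occurs in this window.
Bmp4: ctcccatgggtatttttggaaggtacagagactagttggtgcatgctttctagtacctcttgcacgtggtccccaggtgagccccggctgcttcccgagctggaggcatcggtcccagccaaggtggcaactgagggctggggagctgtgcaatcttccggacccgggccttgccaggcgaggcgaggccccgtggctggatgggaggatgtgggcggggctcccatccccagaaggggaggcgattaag

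Gdf10 (ENSMUSG00000021943, chromosome 14, 33923587 to 33937983), also called BMP3b, a divergent ligand of the BMP3 type, had the opposite order of fractions to Bmp4. It was at 110.3, 167, 358 and 231 CPM in the eGFP libraries and 22.8, 33.3, 28.5 and 30.6 CPM in the eGFP/tdTomato libraries. Gdf10 was at 0.134, 0.692, 0.297 and 0.959 CPM in the tdTomato libraries. Every eGFP library lay above every library with both reporters, which in turn lay above all tdTomato libraries. Gdf10 was 7.51-fold lower in eGFP/tdTomato than in eGFP (-2.91 ± 0.38, adjusted p = 0.000457), 53.3-fold higher than in tdTomato (5.74 ± 0.47, adjusted p = 1.38e-07), and 401-fold higher in eGFP than in tdTomato (8.65 ± 0.52, adjusted p = 5.02e-09). Ependymal, microglial and macrophage, and mural and fibroblast markers were lower in eGFP/tdTomato than in eGFP too (7 of 7, 7 of 11 and 4 of 8 called), and their part in the Gdf10 result was not tested.

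Bmp6, a ligand of the BMP5/6/7 branch, had the same order of fractions at a lower level. It was at 19.6, 19.6, 23.6 and 22.5 CPM in the eGFP libraries and 5.15, 6.38, 5.54 and 9.22 CPM in the eGFP/tdTomato libraries. Bmp6 was at 0, 0.211, 0.0372 and 0.885 CPM in the tdTomato libraries. No fractions overlapped. Against tdTomato it was higher in eGFP/tdTomato (log2 fold change 4.49 ± 0.63, adjusted p = 4.68e-05) and in eGFP (6.18 ± 0.66, adjusted p = 2.38e-06). The difference between eGFP/tdTomato and eGFP did not pass (-1.70 ± 0.51, adjusted p = 0.127), but 5 of 26 alternatives called it, among them DESeq2 (0.0121), limma-voom (0.000663), a fit of only these 2 fractions (0.000571) and the fit without tdTomato replicate 5 (adjusted p = 0.0133).

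Bmp7, another ligand of that branch, stood highest where both reporters were present. It was at 6.41, 27.2, 14.9 and 21.8 CPM in the eGFP libraries and 36.1, 36.05, 55.5 and 54.03 CPM in the eGFP/tdTomato libraries. Bmp7 was at 14.3, 21.5, 13.8 and 10.3 CPM in the tdTomato libraries. All eGFP/tdTomato libraries lay above those of either single-reporter fraction, and the eGFP and tdTomato libraries overlapped. Bmp7 was 3.04-fold higher in eGFP/tdTomato than in tdTomato (1.60 ± 0.36, adjusted p = 0.00266). Against eGFP it was 2.58-fold higher and did not pass (1.37 ± 0.35, adjusted p = 0.0584), while 8 of 26 alternatives called it, among them the fit without eGFP replicate 2 (adjusted p = 0.0391). The call against tdTomato was lost without replicate 3 of every fraction (0.0602).

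Bmp2 (ENSMUSG00000027358, chromosome 2, 133552159 to 133562885), the close relative of Bmp4, did the opposite and was lowest in the cells with both reporters. It was at 5.46, 5.63, 6.4 and 5.96 CPM in the eGFP libraries and 1.26, 1.12, 0.49 and 0.259 CPM in the eGFP/tdTomato libraries. Bmp2 was at 4.68, 2.38, 5.95 and 4.39 CPM in the tdTomato libraries. Each eGFP/tdTomato library was below every library of the other fractions, which overlapped. Bmp2 was 7.46-fold lower in eGFP/tdTomato than in eGFP (-2.90 ± 0.46, adjusted p = 0.0024) and 5.52-fold lower than in tdTomato (-2.47 ± 0.46, adjusted p = 0.000585). Among the 41 members it alone was called lower than both, as were 80 of all genes tested (0.272%). Both calls held in all 26 alternatives. Markers called lower in eGFP/tdTomato than in eGFP were 7 of 7 ependymal, 7 of 11 microglial and macrophage, 4 of 8 mural and fibroblast, and 1 of 8 endothelial ones. Their part in the Bmp2 result was not tested.

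The TGF-beta and activin ligands Tgfb2, Tgfb3 and Inhba were higher in both eGFP-positive fractions than in tdTomato. Tgfb2, the TGF-beta of embryonic glia and neural crest derivatives, was at 140.2, 211, 268 and 194 CPM in the eGFP libraries and 188, 206, 244 and 168 CPM in the eGFP/tdTomato libraries. Tgfb2 was at 9.71, 10.3, 6.62 and 3.98 CPM in the tdTomato libraries. The eGFP/tdTomato libraries lay inside the range of the eGFP libraries, and both were far above the tdTomato libraries. Tgfb2 was 26.3-fold higher in eGFP/tdTomato than in tdTomato (4.72 ± 0.31, adjusted p = 1.41e-08) and 26.6-fold higher in eGFP than in tdTomato (4.73 ± 0.31, adjusted p = 1.26e-08). Between the eGFP-positive fractions its log2 fold change was -0.02 ± 0.26, with a 95% interval of -0.58 to 0.55.

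Tgfb3, another TGF-beta isoform, had the same pattern, at 15.2, 7.99, 19.5 and 18.4 CPM in the eGFP libraries and 9.61, 12.4, 14.1 and 18.9 CPM in the eGFP/tdTomato libraries. Tgfb3 was at 1.65, 3.91, 3.68 and 2.29 CPM in the tdTomato libraries. Its log2 fold change against tdTomato was 2.25 ± 0.34 in eGFP/tdTomato and 2.40 ± 0.35 in eGFP (adjusted p = 0.000101 and 5.14e-05). Inhba, which encodes the subunit of activin A, was at 13.1, 19.6, 17.7 and 15.4 CPM in the eGFP libraries and 14.1, 14.2, 17.96 and 22 CPM in the eGFP/tdTomato libraries. Inhba was at 0.802, 0.391, 0.521 and 1.99 CPM in the tdTomato libraries. It was 18.5-fold higher in eGFP/tdTomato and 17.8-fold higher in eGFP than in tdTomato (adjusted p = 1.18e-06 and 1.21e-06), and no tdTomato library reached the lowest library of the others.

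Gdf11, an activin-like factor of spinal cord patterning and neurogenesis, differed less. It was at 44.4, 66.3, 36.7 and 49.1 CPM in the eGFP libraries and 43.9, 47.9, 50.9 and 42.5 CPM in the eGFP/tdTomato libraries. Gdf11 was at 31.1, 30.03, 24.3 and 16.1 CPM in the tdTomato libraries. It stood above tdTomato without overlap but by less than 1 on the log2 scale, with 0.87 ± 0.23 in eGFP/tdTomato and 0.95 ± 0.23 in eGFP (adjusted p = 0.00789 and 0.00361). The first call was lost without eGFP/tdTomato replicate 3 or eGFP replicate 5 (adjusted p from 0.0843 to 0.174), and the second without eGFP replicate 5 (adjusted p = 0.0517). Both were also lost without replicate 3 of every fraction (0.268 and 0.0503).

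The remaining ligands were scarce. Bmp5 stayed at or below 2.87 CPM and was called higher in eGFP than in tdTomato only (2.97 ± 0.96, adjusted p = 0.0255). Of its exon length, 46.7% lies opposite the antisense gene Gm26903. If the counting ignored strand, reads there fit both genes. Such reads may be among the ambiguous ones (1.79 to 4.60% of reads per library), which enter no gene's count. The call was lost without tdTomato replicates 1 or 2 or eGFP replicates 1 or 5 (adjusted p from 0.0656 to 0.109). It was also lost with the share of reads outside genes as a covariate (0.142) and without replicates 1 or 2 of every fraction (0.129 and 0.104). Bmp3, an antagonist-like BMP, was at 7.69, 1.39, 0.414 and 0.905 CPM in the eGFP libraries, 1.77 to 6.06 CPM in eGFP/tdTomato and 0.93 to 2.38 CPM in tdTomato, and was not called. Alternatives called it between eGFP/tdTomato and eGFP without eGFP replicate 1 (adjusted p = 0.047) and with the share of reads outside genes as a covariate (0.0216). They also called it between eGFP/tdTomato and tdTomato with only these 2 fractions (0.0324), and between eGFP and tdTomato with the covariate (0.0313). Tgfb1, the isoform of microglia and blood cells, ranged from 0 to 2.34 CPM over all 12 libraries. It was not called either, but both of its differences from tdTomato were called without tdTomato replicate 5 (adjusted p = 0.00672 for eGFP/tdTomato and 0.0102 for eGFP). In all, 4 of 26 alternatives called the first and 3 the second.

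**Figure D2:**
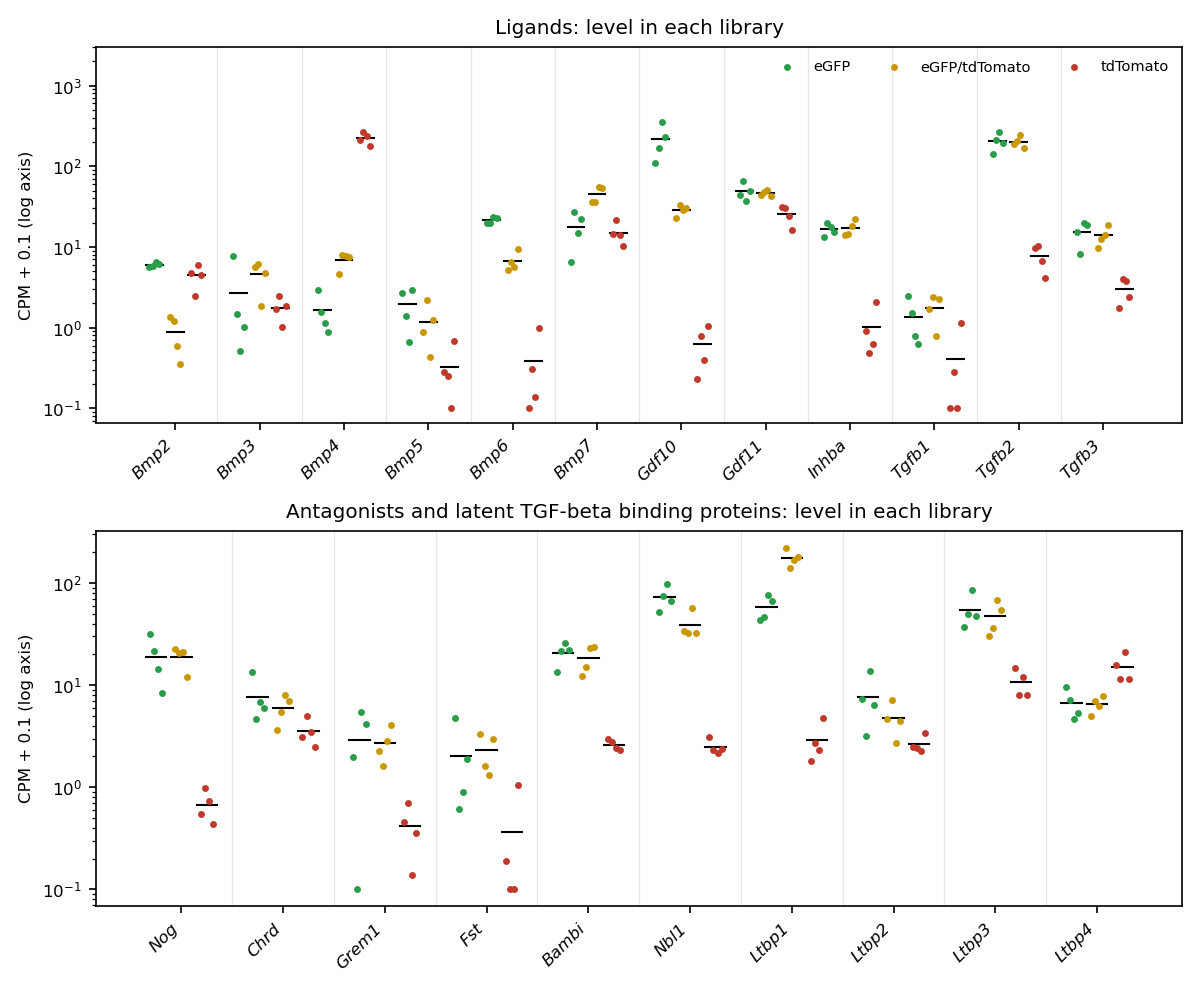
Level of each ligand (top) and of each antagonist and latent TGF-beta binding protein (bottom) in every library, as CPM + 0.1 on a log axis, by fraction (green eGFP, yellow eGFP/tdTomato, red tdTomato, 4 points each), with the mean as a bar. Bmp4 is at 177 to 265 CPM in red and at most 7.94 CPM elsewhere, Bmp2 dips in yellow, and Ltbp1 is highest in yellow.

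To set different genes side by side, levels were divided by the length of all annotated exons of a gene together. That length need not be that of the transcripts present, so shares and ranks between genes are approximate. Per kilobase of exon, the summed ligand RNA was at 109 ± 28.9 CPM per kb in eGFP, 75.9 ± 8.06 in eGFP/tdTomato and 113 ± 19.2 in tdTomato. Bmp4 made up 87.6 ± 1.21% of that sum in tdTomato, 3.99 ± 0.74% in eGFP/tdTomato and 0.741 ± 0.655% in eGFP. Gdf10 made up 36.5 ± 8.75% in eGFP and 7.29 ± 1.002% in eGFP/tdTomato. In eGFP it stood first (41.5 ± 20.4 CPM per kb) and Tgfb2 second (35.1 ± 9.12), a difference within their spread. Tgfb2 was 45.8 ± 4.76% of the ligand sum where both reporters were present, 32.3 ± 1.96% in eGFP and 1.15 ± 0.354% in tdTomato. Gdf11 (11.4 ± 0.945 CPM per kb) and Bmp7 (11.3 ± 2.68) came next in eGFP/tdTomato and did not differ beyond their spread. Bmp7 was 14.8 ± 2.70% of the ligand sum there and 4 ± 2.02% in eGFP.

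Among the receptors, the BMP type 1 receptors Bmpr1a and Bmpr1b were far higher in the eGFP-positive fractions, while the type 2 receptors Bmpr2 and Acvr2a were called in no comparison. Of the 11, 5 were higher and 2 lower than in tdTomato in each eGFP-positive fraction, and 1, Tgfbr3, was called between these fractions (median log2 fold change 0.61, 0.80 and -0.13 for eGFP/tdTomato against tdTomato, eGFP against tdTomato and eGFP/tdTomato against eGFP). The called shares of the 11 in that order were 63.6%, 63.6% and 9.09%. Those of all genes tested were 29.2%, 35.2% and 2.49%, and those of the protein-coding genes 45%, 52.9% and 4.51%.

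Bmpr1b (ENSMUSG00000052430, chromosome 3, 141837136 to 142169425), the type 1 BMP receptor of cartilage and neural progenitors, had the largest excess over tdTomato of all 41 members in the cells with both reporters. It was at 94.4, 132, 204 and 142 CPM in the eGFP libraries and 194, 192, 242 and 169.8 CPM in the eGFP/tdTomato libraries. Bmpr1b was at 2.14, 1.9, 1.15 and 1.44 CPM in the tdTomato libraries. Not 1 tdTomato library came above 2.14 CPM, and the eGFP and eGFP/tdTomato libraries overlapped. Bmpr1b was 120.3-fold higher in eGFP/tdTomato (6.91 ± 0.31, adjusted p = 4.17e-10) and 86.2-fold higher in eGFP (6.43 ± 0.30, adjusted p = 5.03e-10) than in tdTomato. Between the eGFP-positive fractions the difference did not pass (0.48 ± 0.23, 95% interval -0.01 to 0.97).

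Bmpr1a, the broadly expressed BMP type 1 receptor, was at 201, 211, 269 and 179.6 CPM in the eGFP libraries and 219, 203, 277 and 187 CPM in the eGFP/tdTomato libraries. Bmpr1a was at 47.4, 32.1, 25.8 and 23.9 CPM in the tdTomato libraries. The tdTomato fraction kept more of it than of Bmpr1b: the excess was 6.86-fold in eGFP/tdTomato and 6.66-fold in eGFP (log2 fold change 2.78 ± 0.24 and 2.74 ± 0.24, adjusted p = 2.24e-07 and 2.44e-07). Per kilobase, Bmpr1b made up 38.4 ± 5.48% of the BMP type 1 receptor RNA (Bmpr1a, Bmpr1b, Acvr1 and Acvrl1) in eGFP, 46.8 ± 0.834% in eGFP/tdTomato and 3.83 ± 0.578% in tdTomato. The sum of these 4 was at 61.5 ± 13.1, 71.5 ± 11.4 and 7.32 ± 2.16 CPM per kb in the same order.

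Acvr1, a type 1 receptor for BMPs and activins, was at 12.99, 18.4, 18.1 and 13.9 CPM in the eGFP libraries and 15.5, 12.9, 15.3 and 11.9 CPM in the eGFP/tdTomato libraries. Acvr1 was at 12.3, 8.48, 8.29 and 7.23 CPM in the tdTomato libraries. It was called higher than in tdTomato, by 0.61 ± 0.22 in eGFP/tdTomato and 0.80 ± 0.22 in eGFP on the log2 scale (adjusted p = 0.0448 and 0.00916). The first of these calls stood in 7 of 26 alternatives and was lost without any single library but tdTomato replicate 1 (adjusted p up to 0.448). The second was lost without eGFP/tdTomato replicate 3 or eGFP replicate 5 (adjusted p from 0.0802 to 0.101). Without replicate 3 of every fraction both calls were lost (0.654 and 0.301), as they were without replicate 2 of every fraction (0.155 and 0.0909). Acvrl1, the ALK1 receptor of endothelium, stayed at or below 2.30 CPM and was not called. Between eGFP and tdTomato 5 of 26 alternatives called it, among them DESeq2 (adjusted p = 0.0317) and the replicate block (0.00711). Between eGFP/tdTomato and tdTomato 2 of 26 did.

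Bmpr2, the type 2 receptor that serves BMPs, was at 108 ± 10.1 CPM in eGFP, 138 ± 23.4 in eGFP/tdTomato and 117 ± 27.4 in tdTomato (SD, n = 4 each), with 95% intervals of its log2 fold change of -0.05 to 0.77, -0.18 to 0.64 and -0.53 to 0.29 in eGFP/tdTomato against eGFP, eGFP/tdTomato against tdTomato and eGFP against tdTomato. Acvr2a, the activin type 2 receptor, was at 34.5 ± 9.28, 31.4 ± 5.16 and 29.8 ± 4.77 CPM, with intervals of -0.59 to 0.32, -0.37 to 0.53 and -0.24 to 0.67. All 6 intervals lie within 1 on the log2 scale of 0, which leaves out a difference of 2-fold or more in either direction.

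Acvr2b, the second activin type 2 receptor, was lower in the eGFP-positive fractions. It was at 11.1, 6.19, 9.75 and 5.89 CPM in the eGFP libraries and 7.23, 6.54, 8.25 and 7.33 CPM in the eGFP/tdTomato libraries. Acvr2b was at 28.02, 17.3, 20.1 and 13.6 CPM in the tdTomato libraries. No tdTomato library was as low as the highest of the other 8. Its log2 fold change against tdTomato was -1.43 ± 0.27 in eGFP/tdTomato and -1.26 ± 0.27 in eGFP (adjusted p = 0.000658 and 0.00157).

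The TGF-beta receptors moved in opposite directions. Tgfbr1, the type 1 receptor, was at 15.2, 32.1, 29.3 and 27.01 CPM in the eGFP libraries and 29.05, 30.6, 33.4 and 24.8 CPM in the eGFP/tdTomato libraries. Tgfbr1 was at 59.3, 79.6, 75.6 and 46.9 CPM in the tdTomato libraries. It was lower than in tdTomato in eGFP/tdTomato (-1.15 ± 0.23, adjusted p = 0.00132) and in eGFP (-1.33 ± 0.24, adjusted p = 0.000342), with no overlap. Tgfbr2, the type 2 receptor that binds TGF-beta itself, was at 10.4, 3.88, 5.98 and 9.32 CPM in the eGFP libraries and 4.88, 3.35, 2.52 and 2.19 CPM in the eGFP/tdTomato libraries. Tgfbr2 was at 0.223, 0.782, 0.669 and 1.62 CPM in the tdTomato libraries. It was higher than in tdTomato, by 1.96 ± 0.51 and 3.15 ± 0.53 on the log2 scale (adjusted p = 0.00787 and 0.000205). The first of these was lost without replicate 1 of every fraction (0.0522). Per kilobase, Tgfbr1 made up 26.8 ± 4.68% of all receptor RNA in tdTomato, the largest share of the 11, and Tgfbr2 was 0.691 ± 0.638% of its type 2 receptor RNA.

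Tgfbr3, also known as betaglycan, a coreceptor that presents TGF-beta2, was at 19.7, 12.98, 7.23 and 13.4 CPM in the eGFP libraries and 6.96, 4.59, 3.8 and 5.74 CPM in the eGFP/tdTomato libraries. Tgfbr3 was at 4.05, 2.53, 2.01 and 2.32 CPM in the tdTomato libraries. The eGFP libraries lay above those with both reporters by a narrow gap, and the eGFP/tdTomato and tdTomato libraries overlapped. It was lower in eGFP/tdTomato than in eGFP (-1.33 ± 0.33, adjusted p = 0.0439), a call kept in 14 of 26 alternatives and lost without tdTomato replicates 2 or 5, eGFP/tdTomato replicates 1, 2, 3 or 5, or eGFP replicates 1, 2 or 5 (adjusted p from 0.052 to 0.154). It was higher in eGFP than in tdTomato (2.29 ± 0.34, adjusted p = 6.79e-05), and its call between eGFP/tdTomato and tdTomato (0.95 ± 0.33, adjusted p = 0.041) stood in 5 of 26 and was lost without any single library but tdTomato replicate 1 and eGFP replicate 3 (adjusted p up to 0.16). Mural and fibroblast, macrophage, ependymal and endothelial markers were higher in eGFP as well, and their part in the Tgfbr3 and Tgfbr2 values was not tested. Acvr1b, the activin type 1 receptor, ranged from 9.06 to 20.7 CPM over the 12 libraries and was not called.

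**Figure D3:**
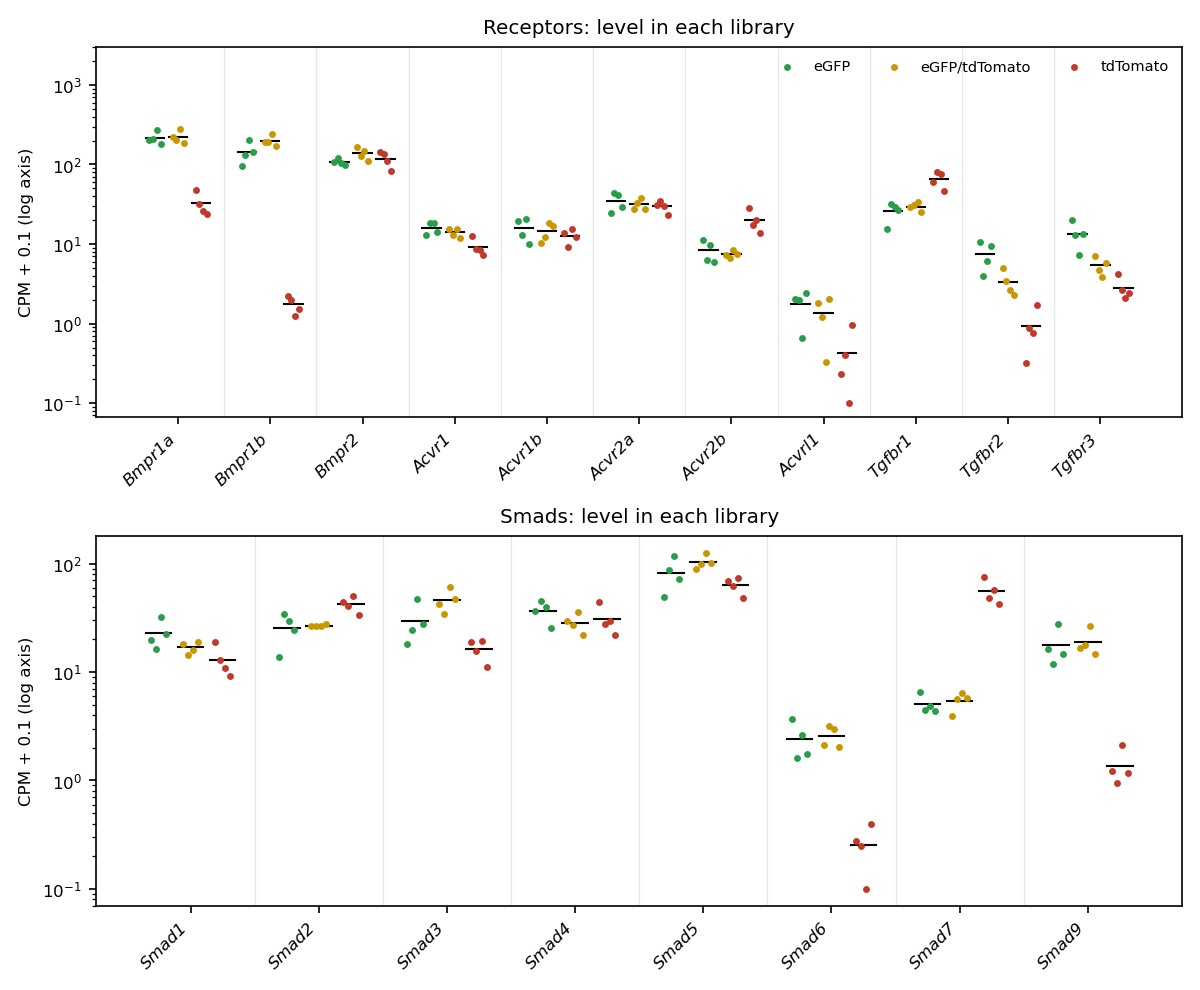
Level of each receptor (top) and each Smad (bottom) in every library, as CPM + 0.1 on a log axis, by fraction (green eGFP, yellow eGFP/tdTomato, red tdTomato, 4 points each), with the mean as a bar. Bmpr1b and Smad9 drop in red, Smad7 rises there to between 41.9 and 75.8 CPM, and Bmpr2, Acvr2a and Smad4 are level.

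No Smad was called between the eGFP-positive fractions with edgeR (1 of 8 at an unadjusted p under 0.05), and 6 of 8 were called against tdTomato in each of them, 4 higher and 2 lower. That is 75% in eGFP/tdTomato and in eGFP, where 29.2% and 35.2% of all genes tested and 45% and 52.9% of the protein-coding genes were called. DESeq2 and limma-voom called no Smad between the eGFP-positive fractions either, and the fit without eGFP replicate 3 called Smad3 (adjusted p = 0.0487).

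The inhibitory Smads differed in opposite directions. Smad7, which blocks both branches and recruits ubiquitin ligases to the receptors, was at 6.46, 4.34, 4.74 and 4.26 CPM in the eGFP libraries and 3.85, 5.54, 6.33 and 5.67 CPM in the eGFP/tdTomato libraries. Smad7 was at 75.8, 47.8, 57.6 and 41.9 CPM in the tdTomato libraries. It was 10.4-fold lower in eGFP/tdTomato and 11.3-fold lower in eGFP than in tdTomato (-3.38 ± 0.25 and -3.50 ± 0.25, adjusted p = 3.89e-08 and 2.79e-08), with every tdTomato library above every other. Smad6, which acts mainly on BMP signals, went the other way at a low level, at 3.62, 1.52, 2.52 and 1.66 CPM in the eGFP libraries and 2.05, 3.11, 2.9 and 1.93 CPM in the eGFP/tdTomato libraries. Smad6 was at 0.178, 0.15, 0 and 0.295 CPM in the tdTomato libraries. Its log2 fold change was 3.96 ± 0.72 and 3.86 ± 0.71 (adjusted p = 0.000473 and 0.000514). Per kilobase, Smad7 was 99.6 ± 0.409% of the inhibitory Smad RNA in tdTomato, 60.3 ± 5.27% in eGFP/tdTomato and 61.1 ± 5.43% in eGFP, and it stood first of all 8 Smads in tdTomato (12.3 ± 3.28 CPM per kb).

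Smad9 (ENSMUSG00000027796, chromosome 3, 54755582 to 54801257), the third BMP receptor Smad, was far higher in the eGFP-positive fractions, at 16.3, 11.9, 27.9 and 14.7 CPM in the eGFP libraries and 16.6, 17.5, 26.4 and 14.6 CPM in the eGFP/tdTomato libraries. Smad9 was at 1.11, 0.842, 2.05 and 1.07 CPM in the tdTomato libraries. It was 14.8-fold and 13.9-fold higher in eGFP/tdTomato and eGFP than in tdTomato (3.89 ± 0.36 and 3.80 ± 0.35, adjusted p = 4.48e-07 and 5.15e-07), and the eGFP-positive fractions overlapped. The other BMP receptor Smads differed far less. Smad1 was at 19.6, 16.4, 32.4 and 22.5 CPM in the eGFP libraries and 18.04, 14.4, 15.97 and 18.7 CPM in the eGFP/tdTomato libraries. Smad1 was at 18.8, 12.8, 10.7 and 9.11 CPM in the tdTomato libraries. It was called higher in eGFP than in tdTomato only (0.83 ± 0.25, adjusted p = 0.0193), a call lost without tdTomato replicates 2, 3 or 5, eGFP/tdTomato replicate 3, or eGFP replicates 1, 3 or 5 (adjusted p from 0.0519 to 0.147). That call was also lost without replicates 3 or 5 of every fraction (0.555 and 0.104). Smad5 was at 49.04, 87.4, 118 and 71.5 CPM in the eGFP libraries and 90.1, 98.9, 126 and 101 CPM in the eGFP/tdTomato libraries. Smad5 was at 68.5, 62.3, 73.2 and 47.9 CPM in the tdTomato libraries. It was called higher in eGFP/tdTomato than in tdTomato only (0.72 ± 0.24, adjusted p = 0.0311), a call lost without tdTomato replicates 1, 2 or 5, eGFP/tdTomato replicates 2, 3 or 5, or eGFP replicate 5 (adjusted p from 0.0589 to 0.37). That call was also lost with no low-count filter (0.0832) and without replicates 2, 3 or 5 of every fraction (0.138, 0.363 and 0.135). With the share of reads outside genes as a covariate, Smad5 was also called between eGFP and tdTomato (adjusted p = 0.00088). Between the eGFP-positive fractions neither gene passed.

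The Smad9 start site is shown because this member was far higher in both eGFP-positive fractions and its upstream window holds a GC-rich element known to bind BMP Smads, GGCGCC, in capitals 51 bases before the start. The window is RefSeq's on GRCm38.p6 (chr3:54755332-54755581, forward strand), written 5′ to 3′.
Smad9: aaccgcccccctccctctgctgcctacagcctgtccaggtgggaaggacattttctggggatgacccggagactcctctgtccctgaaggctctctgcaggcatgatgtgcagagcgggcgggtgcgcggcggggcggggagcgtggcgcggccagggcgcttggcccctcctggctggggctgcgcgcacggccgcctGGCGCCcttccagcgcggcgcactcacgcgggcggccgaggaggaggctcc

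The TGF-beta receptor Smads shifted against each other. Smad3 was at 18, 24.5, 47.2 and 27.6 CPM in the eGFP libraries and 42.3, 34.1, 60.97 and 46.6 CPM in the eGFP/tdTomato libraries. Smad3 was at 18.8, 15.7, 19.4 and 10.96 CPM in the tdTomato libraries. It was higher in eGFP/tdTomato than in tdTomato without overlap (1.51 ± 0.29, adjusted p = 0.000749). In eGFP it was higher too (0.86 ± 0.28, adjusted p = 0.0283), with overlapping libraries and a call lost without tdTomato replicates 1, 2 or 5, eGFP/tdTomato replicate 3, or eGFP replicates 3 or 5 (adjusted p from 0.0508 to 0.136). That call was also lost without replicates 2, 3 or 5 of every fraction (0.0811, 0.361 and 0.121).

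Smad2 was at 13.6, 34.5, 29.4 and 24.1 CPM in the eGFP libraries and 26.4, 26.4, 26.5 and 27.4 CPM in the eGFP/tdTomato libraries. Smad2 was at 44.4, 40.7, 49.8 and 33.5 CPM in the tdTomato libraries. It was lower than in tdTomato, with log2 fold changes of -0.66 ± 0.23 in eGFP/tdTomato and -0.73 ± 0.24 in eGFP (adjusted p = 0.0466 and 0.0253), and these calls stood in 17 and 21 of 26 alternatives. The first was lost without tdTomato replicates 1, 2 or 3 or eGFP/tdTomato replicates 1, 2 or 5 (adjusted p from 0.0863 to 0.147), and the second without tdTomato replicates 1 or 3 (adjusted p from 0.0673 to 0.0843). Both calls were also lost with the share of reads outside genes as a covariate (0.241 and 0.258) and without replicate 5 of every fraction (0.0815 and 0.0606). Per kilobase, Smad3 was 64.2 ± 8.09% of the Smad2 and Smad3 sum in eGFP, 72.6 ± 4.65% in eGFP/tdTomato and 37.6 ± 2.50% in tdTomato, without overlap between tdTomato and the others. Smad4, the partner of all receptor Smads, was at 36.8 ± 8.43, 28.5 ± 5.8 and 30.9 ± 9.65 CPM in eGFP, eGFP/tdTomato and tdTomato, with intervals of its log2 fold change of -0.88 to 0.15, -0.63 to 0.40 and -0.26 to 0.77 in eGFP/tdTomato against eGFP, eGFP/tdTomato against tdTomato and eGFP against tdTomato.

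**Figure D4:**
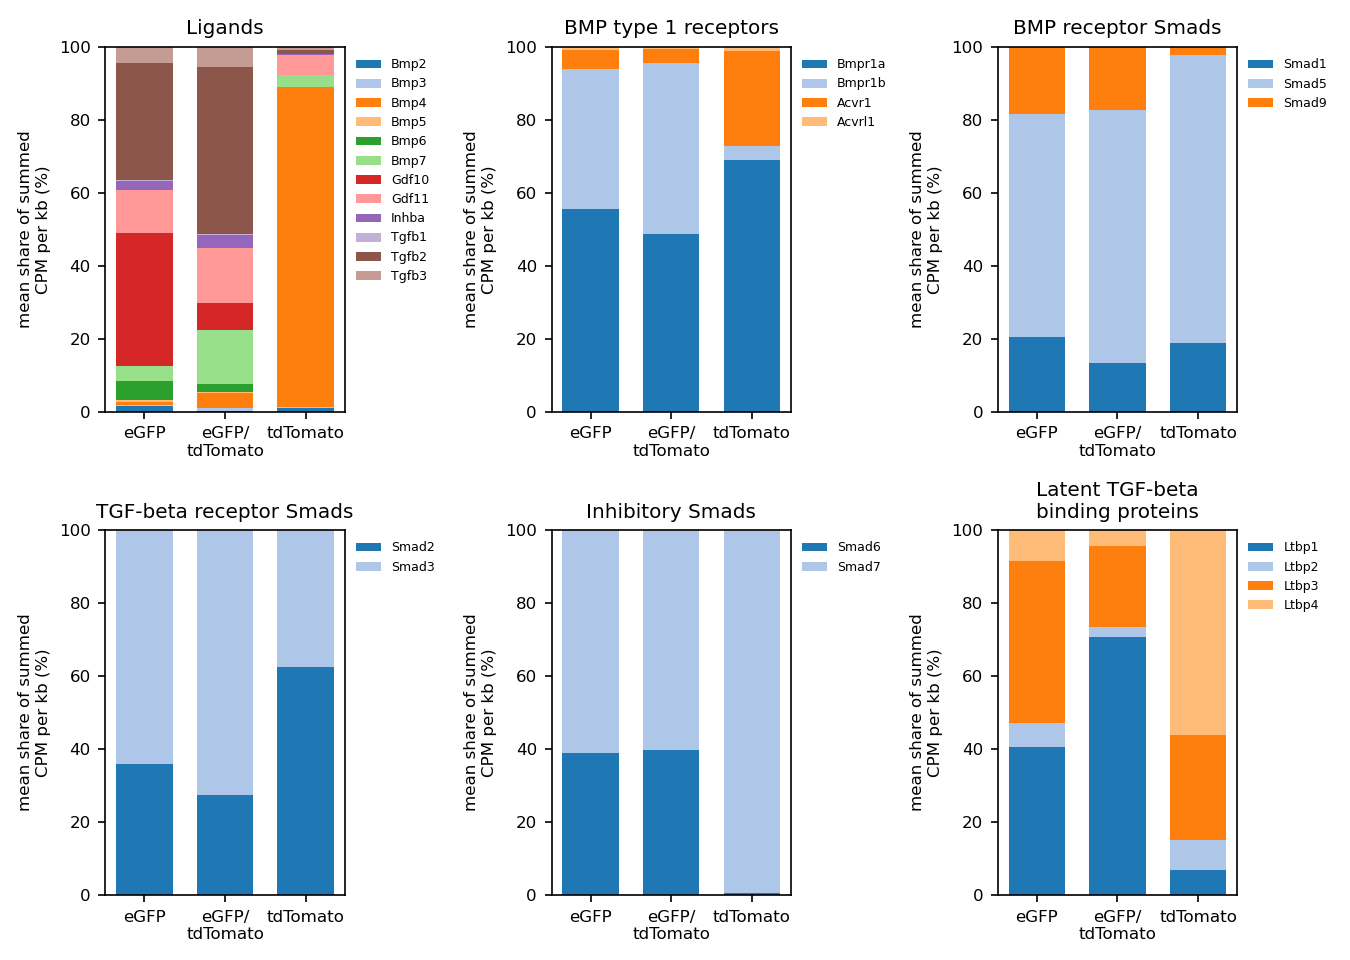
Mean share (%, y axis) of each gene in the summed CPM per kilobase of exon of its functional set in the 3 fractions, over 4 libraries each. Bmp4 fills 87.6% of the ligand bar in tdTomato, Bmpr1b all but vanishes from the type 1 receptors there, and Smad7 and Ltbp4 take the largest shares of their sets.

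Most secreted and membrane antagonists were higher in the eGFP-positive fractions. Of 6, 4 were higher in eGFP/tdTomato and 5 in eGFP than in tdTomato, none was lower, and edgeR called none between the eGFP-positive fractions (1 at an unadjusted p under 0.05), while DESeq2 and limma-voom each called Nbl1. Their median log2 fold change was 3.04, 3.09 and -0.15 for eGFP/tdTomato against tdTomato, eGFP against tdTomato and eGFP/tdTomato against eGFP. Against tdTomato the called shares of these antagonists were 66.7% and 83.3%, where those of all genes tested were 29.2% and 35.2% and those of the protein-coding genes 45% and 52.9%. Per kilobase the sum of the 6 was at 53.3 ± 8.16 CPM per kb in eGFP, 35.9 ± 7.59 in eGFP/tdTomato and 2.69 ± 0.347 in tdTomato.

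Nbl1 (ENSMUSG00000041120, chromosome 4, 139082284 to 139092993), also called DAN, a BMP-binding protein of the DAN family, was the most abundant of them per kilobase in all 3 fractions, at 35.8 ± 9.19, 19.1 ± 6.00 and 1.18 ± 0.213 CPM per kb in eGFP, eGFP/tdTomato and tdTomato. By library it was at 52.4, 74.7, 97.1 and 66.6 CPM in the eGFP libraries and 33.7, 31.98, 57.05 and 32.5 CPM in the eGFP/tdTomato libraries. Nbl1 was at 3.03, 2.23, 2.05 and 2.29 CPM in the tdTomato libraries. It was 16.2-fold and 30.4-fold higher in eGFP/tdTomato and eGFP than in tdTomato (4.02 ± 0.27 and 4.92 ± 0.28, adjusted p = 1.62e-08 and 3.01e-09). Between the eGFP-positive fractions, 3 of 4 libraries with both reporters lay below all eGFP libraries and replicate 3 did not. That difference did not pass (-0.91 ± 0.23, adjusted p = 0.057), and it was called in 11 of 26 alternatives, among them the fits without eGFP/tdTomato replicate 3 or eGFP replicate 1 (adjusted p from 0.0201 to 0.023).

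The Nbl1 upstream window also holds GGCGCC, in capitals 179 bases before the RefSeq start, and is shown as the pair to that of Smad9. It lies at chr4:139092971-139093220, reverse strand on GRCm38.p6, from RefSeq, whose start is 23 bases from the GENCODE start.
Nbl1: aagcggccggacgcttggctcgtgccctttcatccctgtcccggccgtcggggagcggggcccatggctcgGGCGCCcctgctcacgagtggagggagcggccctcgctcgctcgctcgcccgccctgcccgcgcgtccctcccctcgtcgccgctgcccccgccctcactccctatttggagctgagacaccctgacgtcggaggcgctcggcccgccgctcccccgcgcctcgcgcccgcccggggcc

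Nog, which encodes Noggin, the high-affinity antagonist of Bmp2 and Bmp4, was at 31.9, 21.3, 14.2 and 8.22 CPM in the eGFP libraries and 22.3, 20.3, 20.8 and 11.9 CPM in the eGFP/tdTomato libraries. Nog was at 0.445, 0.873, 0.632 and 0.332 CPM in the tdTomato libraries. All tdTomato libraries were below 1 CPM, and the eGFP-positive fractions had nearly the same mean. Nog was 32.2-fold higher in eGFP/tdTomato and 32.3-fold higher in eGFP than in tdTomato (5.01 ± 0.45 and 5.02 ± 0.45, adjusted p = 3.41e-07 and 3.18e-07). The 95% interval between the eGFP-positive fractions was -0.77 to 0.76 on the log2 scale.

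Bambi, a pseudoreceptor without a kinase domain that is itself induced by BMP, was at 13.4, 21.5, 25.7 and 21.9 CPM in the eGFP libraries and 12.1, 15.1, 22.9 and 23.4 CPM in the eGFP/tdTomato libraries. Bambi was at 2.85, 2.65, 2.31 and 2.21 CPM in the tdTomato libraries. It was 7.34-fold and 8.24-fold higher in eGFP/tdTomato and eGFP than in tdTomato (adjusted p = 7.16e-07 and 3.77e-07), without overlap. Chrd, which encodes Chordin, was at 13.3, 4.57, 6.77 and 5.85 CPM in the eGFP libraries and 3.51, 5.34, 7.87 and 6.85 CPM in the eGFP/tdTomato libraries. Chrd was at 3.03, 4.93, 3.38 and 2.36 CPM in the tdTomato libraries. It was called higher in eGFP than in tdTomato only (1.15 ± 0.38, adjusted p = 0.0268), a call lost without tdTomato replicates 1, 3 or 5, eGFP/tdTomato replicate 3, or eGFP replicates 1 or 5 (adjusted p from 0.0602 to 0.255), where eGFP replicate 1 is its highest library. That call was also lost with no low-count filter (0.0536) and with the share of reads outside genes as a covariate (0.21). The same held without replicates 1, 3 or 5 of every fraction (0.182, 0.141 and 0.0834). Grem1, which encodes Gremlin 1, was at 1.89, 0, 5.38 and 4.04 CPM in the eGFP libraries and 2.15, 1.52, 2.75 and 3.96 CPM in the eGFP/tdTomato libraries. Grem1 was at 0.356, 0.602, 0.0372 and 0.258 CPM in the tdTomato libraries. Its calls against tdTomato (3.02 ± 1.01 in eGFP/tdTomato and 3.15 ± 1.01 in eGFP, adjusted p = 0.0341 and 0.0244) stood in 14 and 16 of 26 alternatives. The first was lost without tdTomato replicates 1, 3 or 5, eGFP/tdTomato replicates 1, 3 or 5, or eGFP replicate 5 (adjusted p from 0.0506 to 0.0871), and the second without tdTomato replicates 1 or 3 or eGFP replicates 3 or 5 (adjusted p from 0.0554 to 0.0797). Neither was called with limma-voom (0.125 and 0.344) or without replicate 5 of every fraction (0.162 and 0.122). Fst, which encodes the activin-binding protein follistatin, ranged from 0 to 4.63 CPM and was not called. Its difference from tdTomato passed in eGFP/tdTomato without tdTomato replicate 5 or eGFP replicate 3 (adjusted p from 0.00107 to 0.0476), and in eGFP without tdTomato replicate 5 or eGFP replicate 3 (adjusted p from 0.00122 to 0.045). DESeq2, limma-voom and the replicate block also called both differences, and each was called in 6 of 26 alternatives.

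The leading latent TGF-beta binding protein per kilobase of exon differed between the fractions. Ltbp1 led where both reporters were present and Ltbp4 led in tdTomato, while Ltbp3 and Ltbp1 were close together in eGFP. Of the 4, 2 were higher and 1 lower in eGFP/tdTomato than in tdTomato, 3 higher and 1 lower in eGFP than in tdTomato, and 1 higher in eGFP/tdTomato than in eGFP (median log2 fold change 1.51, 1.98 and -0.13). The shares called in these comparisons were 29.2%, 35.2% and 2.49% of all genes tested and 45%, 52.9% and 4.51% of the protein-coding genes.

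Ltbp1 (ENSMUSG00000001870, chromosome 17, 75005568 to 75392512), the main carrier of latent TGF-beta in matrix, was the 1 member besides Bmp4 called higher in the cells with both reporters than in eGFP cells. It was at 42.9, 46.2, 76.9 and 66.97 CPM in the eGFP libraries and 222, 139, 168 and 179.5 CPM in the eGFP/tdTomato libraries. Ltbp1 was at 1.69, 2.62, 2.19 and 4.61 CPM in the tdTomato libraries. The 3 fractions did not overlap, and the lowest eGFP/tdTomato library was well above the highest eGFP library. Ltbp1 was 3.04-fold higher in eGFP/tdTomato than in eGFP (1.60 ± 0.28, adjusted p = 0.00406), 63.4-fold higher than in tdTomato (5.99 ± 0.34, adjusted p = 3.29e-09) and 20.9-fold higher in eGFP than in tdTomato (4.38 ± 0.32, adjusted p = 3.38e-08). The first call stood in 25 of 26 alternatives and was lost (0.0558) without replicate 2 of every fraction. Astrocyte markers did not pass between the eGFP-positive fractions (0 of 8 called, 4 at an unadjusted p under 0.05). In that comparison 6 of 7 oligodendrocyte and 4 of 6 progenitor markers were higher in eGFP/tdTomato. Lower there were 7 of 7 ependymal, 7 of 11 microglial and macrophage, and 4 of 8 mural and fibroblast markers. The part of these lists in the Ltbp1 result was not tested.

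The upstream window of Ltbp1 is shown as that of the member with a peak in the cells with both reporters. It is RefSeq's on GRCm38.p6 (chr17:75005279-75005528, forward strand), with a start 39 bases from the GENCODE start, and it holds none of the 4 motifs, so no base is in capitals.
Ltbp1: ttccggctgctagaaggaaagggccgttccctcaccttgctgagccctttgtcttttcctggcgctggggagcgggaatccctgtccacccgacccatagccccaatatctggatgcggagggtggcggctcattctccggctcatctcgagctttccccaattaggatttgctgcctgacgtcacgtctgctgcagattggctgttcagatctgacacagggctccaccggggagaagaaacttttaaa

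Ltbp3, which also carries latent TGF-beta, was at 37.2, 50.1, 85.1 and 47.3 CPM in the eGFP libraries and 30.2, 35.9, 67.9 and 54.1 CPM in the eGFP/tdTomato libraries. Ltbp3 was at 14.7, 7.82, 11.9 and 7.93 CPM in the tdTomato libraries. It was 4.44-fold and 5.19-fold higher in eGFP/tdTomato and eGFP than in tdTomato (adjusted p = 7.74e-05 and 2.82e-05). Ltbp4, tied to elastic fibres, went the other way, at 9.59, 7.11, 4.52 and 5.21 CPM in the eGFP libraries and 4.91, 6.86, 6.21 and 7.78 CPM in the eGFP/tdTomato libraries. Ltbp4 was at 15.6, 11.3, 20.9 and 11.4 CPM in the tdTomato libraries. Its log2 fold change against tdTomato was -1.20 ± 0.29 in eGFP/tdTomato and -1.17 ± 0.29 in eGFP (adjusted p = 0.00453 and 0.00483), without overlap. Ltbp2, a matrix protein that does not bind latent TGF-beta, was at 7.19, 3.09, 13.8 and 6.26 CPM in the eGFP libraries and 4.6, 7.02, 2.64 and 4.33 CPM in the eGFP/tdTomato libraries. Ltbp2 was at 2.36, 2.32, 2.16 and 3.28 CPM in the tdTomato libraries. It was called higher in eGFP than in tdTomato only (1.58 ± 0.42, adjusted p = 0.00789, and 0.168 without replicate 3 of every fraction). Per kilobase, Ltbp1 was 70.8 ± 7.55% of the latent binding protein RNA in eGFP/tdTomato, 40.6 ± 4.93% in eGFP and 6.97 ± 4.12% in tdTomato. Ltbp3 was 22.3 ± 7.28%, 44.3 ± 5.55% and 28.8 ± 5.04% in the same order, and Ltbp4 4.36 ± 1.15%, 8.43 ± 4.55% and 56.2 ± 5.89%. The sum of the 4 was at 23.3 ± 2.98, 13.5 ± 3.82 and 4.03 ± 0.874 CPM per kb. Ltbp4 itself was at 0.996 ± 0.186, 1.02 ± 0.351 and 2.29 ± 0.703 CPM per kb, so its share in tdTomato also reflects the low sum there.

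Of 18 genes known as targets or feedback genes of the pathway, 11 were higher and 3 lower in eGFP/tdTomato than in tdTomato, 12 higher and 4 lower in eGFP than in tdTomato, and 3 lower in eGFP/tdTomato than in eGFP (median log2 fold change 2.29, 4.04 and -0.12). The called shares were 77.8%, 88.9% and 16.7% of the 18, against 29.2%, 35.2% and 2.49% of all genes tested and 45%, 52.9% and 4.51% of the protein-coding ones, and the medians of all genes were 0.70, 0.79 and -0.02. Many of these genes also answer to other signals. Against tdTomato, the largest differences were in genes of the Id family, which encode inhibitors of basic helix-loop-helix factors, and of the Msx family of homeobox factors. Id3 was at 287, 481, 774 and 586 CPM in the eGFP libraries and 558, 703, 977 and 766 CPM in the eGFP/tdTomato libraries. Id3 was at 5.57, 7.19, 5.62 and 4.21 CPM in the tdTomato libraries. It was 133-fold higher in eGFP/tdTomato and 94.02-fold higher in eGFP than in tdTomato (adjusted p = 1.13e-09 and 1.53e-09). Id1 was 49.3-fold and 44.6-fold higher in the same order (adjusted p = 2.33e-08 and 2.62e-08), and Id4 106-fold and 171-fold (adjusted p = 6.09e-09 and 2.92e-09). Msx2 was at 12.05 ± 2.52 CPM in eGFP, 13.7 ± 6.71 in eGFP/tdTomato and 0.0857 ± 0.0544 in tdTomato, with log2 fold changes against tdTomato of 6.99 ± 0.49 in eGFP and 7.18 ± 0.49 in eGFP/tdTomato (adjusted p = 2.32e-08 and 2.02e-08).

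The 3 targets lower in the cells with both reporters than in eGFP cells were Msx1, Tgif1 and Tgfbi. Msx1 was at 53.6, 81.1, 118 and 87.5 CPM in the eGFP libraries and 18.2, 29.1, 34.3 and 31.9 CPM in the eGFP/tdTomato libraries. Msx1 was at 0.891, 0.722, 0.707 and 0.959 CPM in the tdTomato libraries. Each fraction was apart from the others (-1.58 ± 0.25 in eGFP/tdTomato against eGFP, adjusted p = 0.00184). Tgif1, a corepressor of Smads, was at 20.1, 40.4, 50.8 and 36.9 CPM in the eGFP libraries and 9.17, 13.9, 13.2 and 10.6 CPM in the eGFP/tdTomato libraries. Tgif1 was at 1.02, 0.361, 0.335 and 1.29 CPM in the tdTomato libraries. Its log2 fold change in the same comparison was -1.66 ± 0.35 (adjusted p = 0.0175). Tgfbi, a matrix protein named for its induction by TGF-beta and named here after its values were seen, was near its tdTomato level there. It was at 47.6, 73.5, 15.9 and 49.1 CPM in the eGFP libraries and 3.65, 2.79, 0.828 and 2.26 CPM in the eGFP/tdTomato libraries. Tgfbi was at 1.25, 1.9, 2.57 and 2.44 CPM in the tdTomato libraries. Its log2 fold change was -4.28 ± 0.48 against eGFP (adjusted p = 0.000144; 95% interval against tdTomato -0.74 to 1.19). Ependymal, macrophage and fibroblast markers were lower in the same comparison (7 of 7, 7 of 11 and 4 of 8 called), and their part in these values was not tested. The 3 lower than in tdTomato in both eGFP-positive fractions, also named after their values were seen, were Smurf1 and Smurf2, ubiquitin ligases that act with Smad7, and Pmepa1, a feedback inhibitor of TGF-beta. Smurf1 was at 19.1, 23.1, 23.1 and 18 CPM in the eGFP libraries and 19.5, 18.9, 28.02 and 19.8 CPM in the eGFP/tdTomato libraries. Smurf1 was at 174, 91.6, 152 and 92.02 CPM in the tdTomato libraries. Pmepa1 was at 8.47, 7.85, 8.77 and 10.5 CPM in the eGFP libraries and 9.99, 5.98, 9.3 and 8.48 CPM in the eGFP/tdTomato libraries. Pmepa1 was at 47.9, 36.1, 42.7 and 35.5 CPM in the tdTomato libraries. Their log2 fold changes in eGFP/tdTomato against tdTomato were -2.56 ± 0.24 for Smurf1, -2.26 ± 0.21 for Pmepa1 and -0.71 ± 0.20 for Smurf2 (adjusted p = 5.72e-07, 3.8e-07 and 0.0132).

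**Figure D5:**
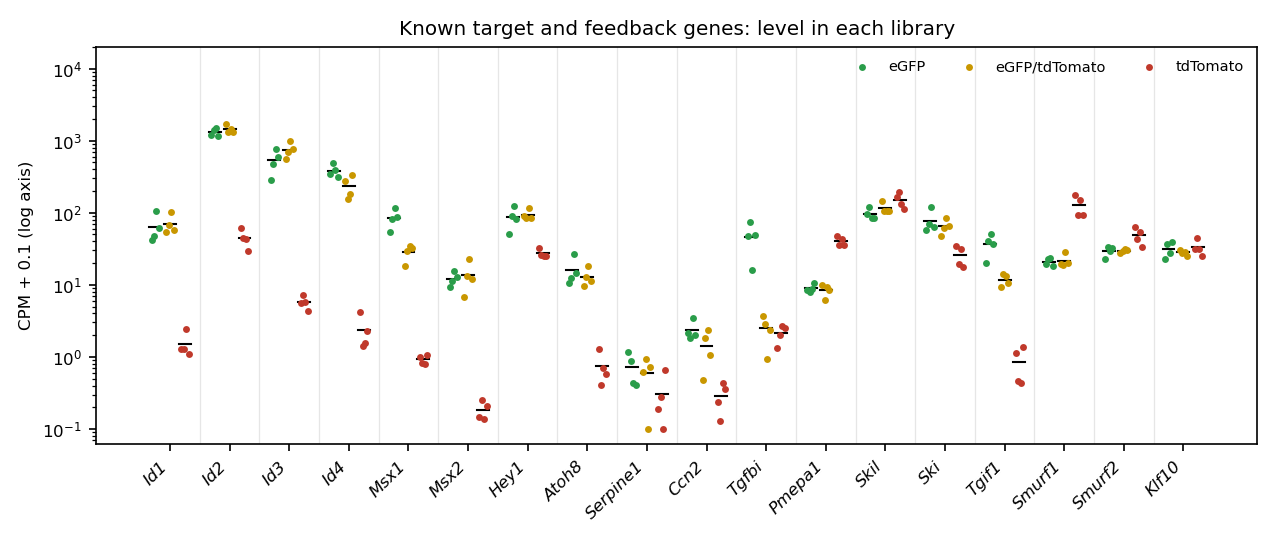
Level of 18 known target and feedback genes of the pathway in every library, as CPM + 0.1 on a log axis, by fraction (green eGFP, yellow eGFP/tdTomato, red tdTomato, 4 points each), with the mean as a bar. The Id and Msx genes are lowest in red, Smurf1 and Pmepa1 are highest in red, and Tgfbi and Msx1 are lower in yellow than in green.

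Among 31 further genes of the pathway, 26 could be tested. Of these, 11 were higher and none lower in eGFP/tdTomato than in tdTomato, 16 higher and none lower in eGFP than in tdTomato, and 1, Sostdc1, was lower in eGFP/tdTomato than in eGFP (median log2 fold change 1.48, 2.46 and -0.35). The called shares of the 26 (42.3%, 61.5% and 3.85%) stood near those of the protein-coding genes given above (45%, 52.9% and 4.51%). Itgb5, the beta subunit of an integrin that can release latent TGF-beta, was at 28.8, 52.3, 67.2 and 43.5 CPM in the eGFP libraries and 59.6, 38.4, 69.9 and 73.96 CPM in the eGFP/tdTomato libraries. Itgb5 was at 0.579, 0.481, 0.707 and 0.996 CPM in the tdTomato libraries. It was 87.2-fold and 69.2-fold higher in eGFP/tdTomato and eGFP than in tdTomato (adjusted p = 2.56e-09 and 3.48e-09). Thbs1, which encodes thrombospondin 1, another activator of latent TGF-beta, was 29.8-fold and 47.7-fold higher (adjusted p = 5.48e-08 and 1.65e-08). Fstl1, a follistatin-like protein, was 11.5-fold and 18.9-fold higher, and Rgma, a BMP coreceptor, 10.9-fold and 8.85-fold (adjusted p = 9.41e-09 and 2.02e-09 for Fstl1, 1.01e-05 and 2.1e-05 for Rgma). Acvr1c, the ALK7 receptor, was at 7.8, 7.99, 4.44 and 4.15 CPM in the eGFP libraries and 16.9, 13.3, 12.1 and 13.2 CPM in the eGFP/tdTomato libraries. Acvr1c was at 0.668, 0.451, 0.483 and 2.1 CPM in the tdTomato libraries. It was higher than in tdTomato in both (log2 fold change 3.90 ± 0.47 and 2.71 ± 0.45, adjusted p = 8.11e-06 and 0.000194). Its difference between the eGFP-positive fractions did not pass (1.19 ± 0.41, adjusted p = 0.217), although no libraries overlapped. Sostdc1, a secreted BMP and Wnt antagonist, was at 11.9, 21.7, 11.7 and 14.3 CPM in the eGFP libraries and 1.6, 0.478, 0.565 and 1.04 CPM in the eGFP/tdTomato libraries. Sostdc1 was at 0.668, 1.02, 0.669 and 0.443 CPM in the tdTomato libraries. It was 16.01-fold lower in eGFP/tdTomato than in eGFP (adjusted p = 8.46e-05) and near its tdTomato level, with a 95% interval of -0.49 to 1.27 against tdTomato on the log2 scale. The ependymal, macrophage and fibroblast markers lower in eGFP/tdTomato (7 of 7, 7 of 11 and 4 of 8 called) moved with Sostdc1, and their part was not tested.

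Upstream windows of 250 bases were on hand from RefSeq for 29 of the 41 members and were searched, both strands, for GGCGCC and GTCTAGAC, which bind Smads, and for the E-boxes CAGCTG and CATATG; each of these motifs reads the same on both strands. GGCGCC was found in 7 of the 29 (24.1%), against 9.59% of all 32851 windows of that length: Bmpr1a, Bmpr2, Tgfbr1, Smad9, Chrd, Grem1 and Nbl1. Of these, Bmpr1a, Smad9, Grem1 and Nbl1 were higher in both eGFP-positive fractions than in tdTomato, Chrd in eGFP only, Bmpr2 in neither, and Tgfbr1 was lower in both. CAGCTG was found in 1 window, that of Gdf11 (3.45%, against 13.0% of all), and GTCTAGAC and CATATG in none (0.167% and 3.46% of all). The members' windows were richer in G and C than others (median 68.8% against 52.4%), and the motif shares were not matched for that. Some of the RefSeq starts lie far from the GENCODE gene start: 795 bases for Bmpr1a, 879 for Bmpr2, 609 for Bmp6, 329 for Acvr1 and 187161 for Bmpr1b. A match describes these letters only and says nothing of binding in these cells.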

How the data were processed

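Total RNA of 12 sorted libraries was sequenced on a BGISEQ-500, per the labels. The authors deposited raw counts per Ensembl gene, made with STAR and HTSeq on GRCm38 (mm10), per the submitters' processing notes; versions, strand mode and annotation release are not given in the sources used here. Reads outside genes stayed out of library sizes (21.2 to 57.1% per library). Symbols and positions came from GENCODE M21 (53360 of 53465 identifiers), and exons of 14 members overlap another gene, 1 (Bmp5) over at least 20% of its length.

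The test on these counts was edgeR 4.0.16 (quasi-likelihood, robust, TMM, filterByExpr) in R 4.3.3, all 12 libraries in 1 fit with fraction as the only factor, Benjamini-Hochberg over 29361 genes, called at an adjusted p under 0.05. The SE is the log2 fold change over the root of F; intervals are 95%. Alternatives (26) were other size factors, DESeq2 1.42.0, limma-voom 3.58.1, other filters, 2 fractions only, a replicate block, a quality covariate, a non-robust fit and libraries left out. Where single libraries are named for a lost call, further alternatives could lose it as well. The fit was tested on simulated data.

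Members and lists were chosen with earlier results of these data known. Library values are given for called members that reach 2 CPM in 1 of the fractions compared, and for targets and other pathway genes up to 6 each with the largest called change and at least 5 CPM. What libraries of 1 set have in common is not in the labels, so libraries were not paired in the main fit. Deviations of equal numbers correlated from -0.226 to 0.596. They correlated at 0.49 to 0.596 for replicate 3 and 0.148 to 0.3 for replicate 5, and with mixed signs for replicates 1 and 2. The replicate block among the alternatives takes such sets into account.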

Additional observations from a re-analysis of the deposited data

Results flagged for a closer look

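Each member was examined in each fraction (123 groups of 4 libraries) for a library far from the other 3, which chance alone gives in about 1 of 20 groups. There were 5 such values. Bmp3 was at 7.69 CPM in eGFP replicate 1, the library with the fewest gene counts, against 0.414 to 1.39 CPM in the other eGFP libraries. Bmp4 was at 4.47 CPM in eGFP/tdTomato replicate 1, against 7.44 to 7.94 CPM, and still above every eGFP library. Smad2 was at 27.4 CPM in eGFP/tdTomato replicate 5, where the others lay within 26.4 to 26.5 CPM. Fst was at 0.959 CPM in tdTomato replicate 5, against 0 to 0.0891 CPM, and Nbl1 was at 57.05 CPM in eGFP/tdTomato replicate 3, against 32.0 to 33.7 CPM.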

How the results depend on the processing

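No called member changed sign in any of the 26 alternatives. Between eGFP/tdTomato and eGFP, where edgeR called 2 members higher and 3 lower, 4 were higher with the share of reads outside genes as a covariate and 1 without replicate 2 of every fraction, and 5 were lower with DESeq2, with limma-voom and with a replicate block. The block called 3 higher there, 25 higher and 7 lower in eGFP/tdTomato against tdTomato, and 25 higher and 6 lower in eGFP against tdTomato. With libraries left out, counts of higher and lower members ran from 1 to 3 and 2 to 4 in eGFP/tdTomato against eGFP, 16 to 22 and 6 to 7 in eGFP/tdTomato against tdTomato, and 17 to 24 and 5 to 6 in eGFP against tdTomato. Of the called members 3 of 5, 21 of 29 and 21 of 30 kept their call in every alternative. Bmp3, not called between eGFP and tdTomato (0.63), turned to -1.62 (adjusted p = 0.0313) with the covariate; the cause was not tested. The 95% intervals of Bmp3, Bmp5, Tgfb1, Acvrl1, Grem1 and Fst were over 3 log2 units wide in all 3 comparisons, which limits what their levels can show. DESeq2's size factors in edgeR moved the all-gene median (log2 scale) of eGFP/tdTomato against tdTomato from 0.70 to 0.57, with 20 members higher and 7 lower.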
